A study of Mus musculus with 55 samples.

Results

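The Kruppel-like factors (KLFs) were followed through 8 genes, Klf2, Klf4, Klf5, Klf6, Klf7, Klf9, Klf10 and Klf13, of 28492 genes with a count table entry in a maturation experiment and 28216 in a stimuli experiment. The genes were listed by name, and each was represented by the transcript that held its most counts over all samples of an experiment. The members were chosen by hand with earlier results of these data known, among them the rises of Klf4 at 180 min with KCl at 7DIV and at 23DIV and with bicuculline plus 4-aminopyridine at 23DIV. Those rises of Klf4, and the differences built on them, are therefore given as values with no test. The p-values of the other comparisons came from fits of all genes and are not independent of that choice of genes.

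KLFs are zinc finger transcription factors that bind GC-rich and CACCC-type DNA elements. Klf2, Klf4, Klf5, Klf6 and Klf7 carry activation domains and work with acetyltransferases, whereas Klf9, Klf10 and Klf13 carry a short domain that recruits the Sin3 corepressor. In central neurons Klf4 and Klf9 are known as brakes on axon growth and Klf6 and Klf7 as promoters of it, and several family members behave as early response genes in many cell types.

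Primary neurons were prepared from the forebrain (cortex and hippocampus) of late embryonic CD1 mice of mixed sex, and all cultures shared this background, with no allele or transgene in the labels. In the maturation experiment, neurons at 7 or 23 days in vitro (DIV) received 55 mM KCl, which depolarizes the membrane, or 4APBic, which is 50 uM bicuculline (a blocker of GABA-A receptors) plus 2.5 mM 4-aminopyridine (a potassium channel blocker), for 15 or 180 min. In the stimuli experiment, neurons at 21DIV received 50 uM bicuculline alone or 55 mM KCl for 15, 45 or 180 min, or were silenced for 48 h with 1 uM TTX (a sodium channel blocker), which was then washed out for 15, 45 or 180 min (TTX withdrawal). Untreated basal cultures were the controls, and TTX withdrawal was compared with cultures still in TTX, called basal TTX. By the paper, TTX was removed by repeated exchanges with fresh medium, with control neurons washed in the same way. KCl and bicuculline were instead added in a small volume to conditioned medium. The part of this handling in differences between the responses was not tested. Groups held 3 samples except that 4APBic at 23DIV held 2 at each time, each bicuculline and KCl time at 21DIV held 2, TTX withdrawal at 45 min held 2 and basal TTX held 4. Nothing in the labels ties samples to separate dissections, so the p-values measure the spread between samples, which may be partly technical. In the stimuli experiment all 15 and 45 min samples of bicuculline and KCl were in wells lettered B, and all 180 min ones in wells lettered A. Basal samples were in both, and all basal TTX and TTX withdrawal samples in A. Time and well letter can thus not be told apart for bicuculline and KCl. RNA was measured by CEL-Seq2, a 3′ end method, and values are CPM, the counts assigned to a gene scaled to the same total in every sample with trimmed mean (TMM) factors. A gene was called where edgeR's quasi-likelihood test gave a Benjamini-Hochberg adjusted p under 0.05 over all genes tested and the change was at least 1.5-fold, and a difference between 2 responses was called on the adjusted p alone.

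Gene counts per sample ranged from 1659722 to 4474968 at 7DIV, from 1784170 to 14012872 at 23DIV and from 1177500 to 3909487 at 21DIV. Of 9 activity genes on a list that includes Fos, Npas4 and Arc, 8 were tested. All 8 were called higher with 4APBic for 180 min at 23DIV, as were 7.27% of all genes. With bicuculline all 8 were called higher at 15, 45 and 180 min (2.3%, 4.39% and 0.673% of all genes). All 8 were lower in basal TTX than in basal cultures (10.8% of all genes called lower). At 7DIV with KCl for 15 min or 4APBic at either time, and at 15 min of TTX withdrawal, 0% of all genes were called. The list is no check there, and its counts in the remaining conditions are not given here. The summed level of 6 neuronal markers ran from 5342 to 10026 CPM over samples of the maturation experiment and from 3664 to 9363 CPM over those of the stimuli experiment. The cultures also held glia. The sum of 7 astrocyte markers was 503 to 758 CPM in the 7DIV basal samples and 4353 to 5530 CPM in the 23DIV basal samples. At 21DIV it was 2423 to 2964 CPM in basal samples, 6881 to 8021 CPM in basal TTX and 10268 to 14627 CPM after 180 min of TTX withdrawal, and 7 of 7 astrocyte markers were called higher in basal TTX than in basal cultures. In such bulk samples, fewer cells of a type and less RNA per cell cannot be told apart. Klf2 and Klf4 are known in blood vessel endothelium and Klf4 and Klf5 in epithelium. Of the markers with an entry, 0 of 7 endothelial and 0 of 5 epithelial ones passed the filter on low counts in either experiment. Their sums stayed at or under 6.07 and 5.75 CPM, and group means of Klf2 itself reached only 4.57 CPM. The part of such cells in the values of the members was not tested. None of the markers of any list was at 0 in all samples.

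The 8 genes lie on 8 chromosomes of the mm10 build. Klf7 is on chromosome 1 (64029448 to 64122345), Klf4 on chromosome 4 (55527137 to 55532475), Klf13 on chromosome 7 (63886351 to 63938915), Klf2 on chromosome 8 (72319062 to 72321654), Klf6 on chromosome 13 (5861489 to 5870393), Klf5 on chromosome 14 (99298691 to 99313412), Klf10 on chromosome 15 (38291464 to 38300711) and Klf9 on chromosome 19 (23141226 to 23168129). In the last kilobase of Klf7, where 3′ end counts fall, the annotation has Gm26649, a long noncoding RNA on the opposite strand. Whether the counting used strand is not given in the sources used here.

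Promoter entries were found for 6 of the 8 genes, and the 250 bases before the start site are shown for Klf4 and Klf6, which rose together after TTX withdrawal, and for Klf9 and Klf13, a closely related repressor pair that moved in opposite directions with 4APBic. The sequences are from RefSeq (GRCm38.p6, 5′ to 3′ on the strand of the gene), and capitals mark matches, on either strand, of the cAMP response element core TGACG, the E-box CACGTG, the CArG box bound by SRF and the MEF2 box.
Klf4 (chr4:55532476-55532725, minus strand): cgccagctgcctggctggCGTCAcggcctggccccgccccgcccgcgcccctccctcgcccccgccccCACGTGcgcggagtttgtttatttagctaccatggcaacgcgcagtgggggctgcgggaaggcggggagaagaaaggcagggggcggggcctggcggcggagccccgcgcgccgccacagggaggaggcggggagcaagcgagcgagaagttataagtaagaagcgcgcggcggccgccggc
Klf6 (chr13:5861239-5861488, plus strand): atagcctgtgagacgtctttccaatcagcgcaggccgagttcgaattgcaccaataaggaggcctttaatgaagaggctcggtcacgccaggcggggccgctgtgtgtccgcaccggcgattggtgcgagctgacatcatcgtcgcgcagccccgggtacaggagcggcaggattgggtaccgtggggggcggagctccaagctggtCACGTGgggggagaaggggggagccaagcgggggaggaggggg
Klf9 (chr19:23140976-23141225, plus strand): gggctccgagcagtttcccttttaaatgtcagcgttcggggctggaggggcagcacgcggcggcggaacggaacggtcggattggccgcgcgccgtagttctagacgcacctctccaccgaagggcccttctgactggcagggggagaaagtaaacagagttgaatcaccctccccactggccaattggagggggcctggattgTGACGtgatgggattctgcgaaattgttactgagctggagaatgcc
Klf13 (chr7:63938916-63939165, minus strand): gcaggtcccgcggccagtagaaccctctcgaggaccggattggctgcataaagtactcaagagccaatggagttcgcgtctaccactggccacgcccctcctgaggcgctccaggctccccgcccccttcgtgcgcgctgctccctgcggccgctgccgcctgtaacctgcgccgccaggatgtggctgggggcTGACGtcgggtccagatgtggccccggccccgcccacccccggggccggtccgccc
Klf4, Klf9 and Klf13 held 1 match of TGACG each, which 17.77% of 32851 promoter windows of this length held. Klf4 and Klf6 held 1 match of CACGTG each, against 6.02% of all windows. The GC box GGGCGG, an element that KLFs themselves bind, matched 4 times in Klf4, 3 times in Klf13 and 1 time in Klf6, and 32.74% of windows held at least 1 match. No CArG box was found in the 6 windows, and a MEF2 box was found in that of Klf2, against shares of 1.47% and 2.92% of all windows. The full element TGACGTCA, held by 1.55% of windows, was in none of the 6. A match is a description of these letters and not a shown binding site.

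Across the stimulated conditions, Klf4, Klf5, Klf6 and Klf9 were called higher, Klf13 lower, Klf10 in both directions and Klf2 and Klf7 in neither. Over the 17 comparisons of a stimulated group with its control, Klf5 was called higher in 5, Klf6 in 5, Klf10 in 3 and Klf9 in 2. Klf4 was called higher in 3 of the 14 comparisons that remain once its 3 known rises are set aside. All its control samples were under 5 CPM, so it passed the filter only through stimulated samples. Klf13 was called lower in 3 and Klf10 in 1, both in the 23DIV cultures. Klf7 was called in 0 of 17 by edgeR's quasi-likelihood test (1 at an unadjusted p under 0.05 and 0 by DESeq2), and its log2 fold changes ran from −0.57 to 0.24. Klf2 entered the fit in 9 comparisons only through 2 samples over 5 CPM, both of TTX withdrawal, and was called in 0 by edgeR's quasi-likelihood test (0 at an unadjusted p under 0.05 and 0 by DESeq2).

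**Figure D1:**
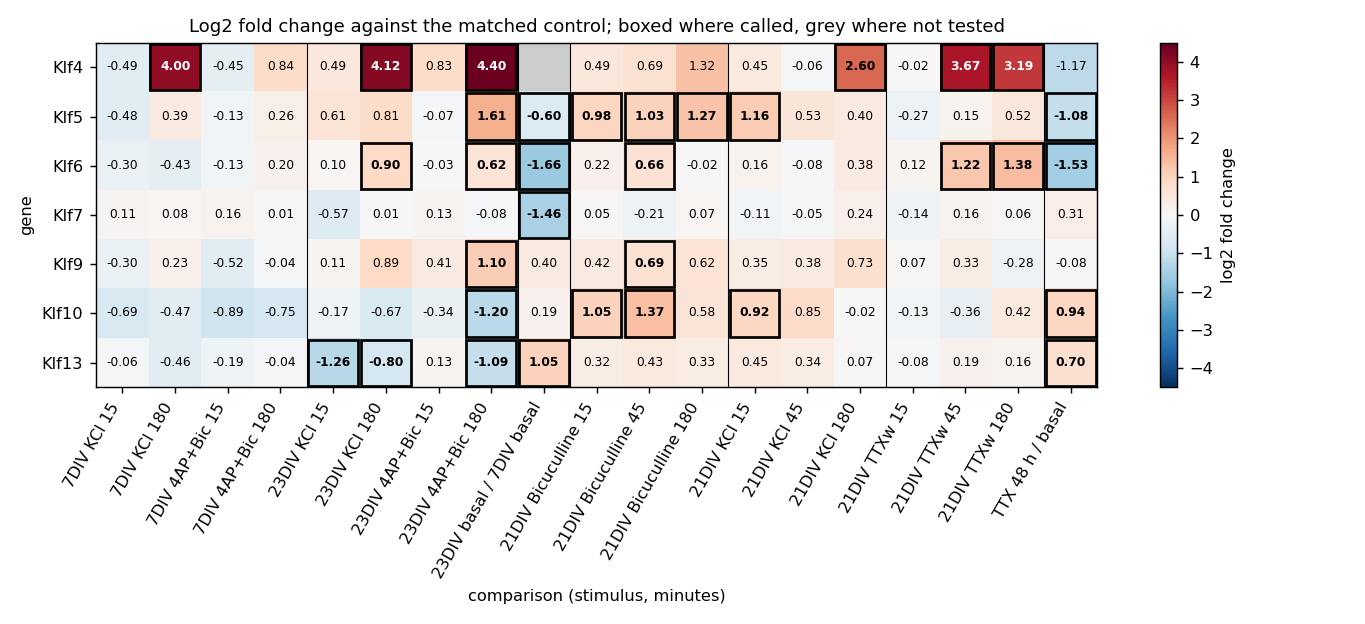
Log2 fold change of 7 KLF genes (rows) in 17 comparisons of a stimulated group with its control and in 2 comparisons of basal groups (columns), as colour and printed value, with a box where the gene was called and grey where it was not tested. The 3 boxes of Klf4 at 7DIV and 23DIV mark the rises known beforehand and are no test, the Klf7 row has a box only in the comparison of basal stages, and the 3 negative boxes of Klf13 stand among the 23DIV stimuli.

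The counts for 7DIV and 23DIV leave out the 3 known rises of Klf4, and so cover 6 members in place of 7 in those comparisons. At 7DIV, 0 of 6 members were called with KCl for 180 min (edgeR's quasi-likelihood test, with 1 at an unadjusted p under 0.05 and 0 by DESeq2), where 1.91% of 11746 genes were called. With KCl for 15 min and with 4APBic for 15 or 180 min, 0 of 7 members and 0% of all genes were called by edgeR's quasi-likelihood test. At an unadjusted p under 0.05 these 3 comparisons held 0, 1 and 1 members, and DESeq2 called 0 members in each. At 23DIV, 1 of 7 was called with KCl for 15 min (6.04% of all genes), 2 of 6 with KCl for 180 min (4.71%, and 2.87% higher and 1.84% lower, where 1 member was higher and 1 lower), 0 of 7 with 4APBic for 15 min (0.0341%, with 0 members at an unadjusted p under 0.05 and 0 called by DESeq2) and 5 of 6 with 4APBic for 180 min (14.1%). With KCl for 180 min DESeq2 called 4 of the 6, Klf5 and Klf9 besides Klf6 and Klf13. The median log2 fold change of the 6 members with 4APBic for 180 min was 0.27 at 23DIV, with 3 called higher (7.27% of all genes) and 2 lower (6.81%), against a median of −0.02 over all genes tested.

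At 21DIV, 2 of 8 members were called with bicuculline at 15 min (3.33% of 12027 genes), 4 of 8 at 45 min (7.3%) and 1 of 8 at 180 min (0.757%), all of them higher, where 2.3%, 4.39% and 0.673% of all genes were. With KCl 2 of 8 were called at 15 min (7.11%), 0 of 8 at 45 min (0.698%, with 3 members at an unadjusted p under 0.05 and 0 called by DESeq2) and 1 of 8 at 180 min (0.773%). With TTX withdrawal 0 of 8 were called at 15 min (0%, with 0 members at an unadjusted p under 0.05 and 0 called by DESeq2), 2 of 8 at 45 min (0.316%) and 2 of 8 at 180 min (13.9%). Klf4 is among the calls at 180 min of KCl and at 45 and 180 min of TTX withdrawal. It passed the filter only through stimulated samples, so those calls are not independent of its rises. The stimulated groups of bicuculline and KCl shared the 3 basal samples, and those of TTX withdrawal shared the 4 basal TTX samples, so calls within a stimulus are not independent of each other.

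Differences between responses, and between times of a stimulus, were tested in the same fits. Between stages, with the differences of Klf4 set aside as built on known rises, 1 of 6 members differed in the response to KCl for 180 min (0.809% of all genes) and 1 of 6 in that to 4APBic for 180 min (4.91%). For the 15 min responses 0 of 7 differed by edgeR's quasi-likelihood test (1.89% of all genes for KCl and 0.00851% for 4APBic), with 2 and 1 members at an unadjusted p under 0.05 and 1 and 0 called by DESeq2. The response to TTX withdrawal differed from that to bicuculline for 0 of 8 members at 15 min (2% of all genes, with 3 members at an unadjusted p under 0.05 and 1 called by DESeq2), 2 at 45 min (1.9%) and 3 at 180 min (9.69%), and from that to KCl for 1 at 15 min (4.01%), 2 at 45 min (0.208%) and 2 at 180 min (8.38%). Over the 10 comparisons of a later with an earlier time of a stimulus, 9 of 73 pairs of member and comparison were called, 3 built on the known rises of Klf4 being set aside, against 3.16% of such pairs over all genes. From 15 to 180 min these were 0 of 6 with KCl (2.65%) and 0 of 7 with 4APBic (0%) at 7DIV, and 1 of 6 with KCl (0.809%) and 3 of 6 with 4APBic (12%) at 23DIV. From 15 to 45 min at 21DIV they were 0 of 8 with bicuculline (0.15%), 0 of 8 with KCl (0.382%) and 2 of 8 with TTX withdrawal (0.274%), and from 45 to 180 min 1 of 8 with each (2.92%, 0.15% and 12.3%). The 4 comparisons with 0 calls by edgeR's quasi-likelihood test held 1 member each at an unadjusted p under 0.05. DESeq2 called 1 member, Klf5, with KCl at 7DIV and 0 in the other 3. The calls at 21DIV include Klf4, which passed the filter only through stimulated samples. At 21DIV the steps from 45 to 180 min of bicuculline and KCl also cross well letters, which cannot be told apart from time.

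Klf4, a factor known for stem cell reprogramming and for restraining axon growth, was low in all control samples and had the largest log2 fold changes of the members. In the 7DIV basal samples it was at 1.42, 3.68 and 2.71 CPM, and after 180 min of KCl at 30.0, 42.95 and 51.2 CPM, a log2 fold change of 4.00 (SE 0.54). All 3 stimulated samples were far above all 3 basal samples. After 180 min of 4APBic at 7DIV it was at 3.76, 7.06 and 2.86 CPM, which overlapped the basal samples (log2 fold change 0.84, SE 0.62, adjusted p = 0.918). At 15 min neither stimulus moved it past the basal range by the test, with log2 fold changes of −0.49 (SE 0.70) for KCl and −0.45 (SE 0.73) for 4APBic.

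At 23DIV the basal samples were at 2.07, 0.894 and 0.221 CPM, which is 12, 5 and 2 counts, so folds against them rest on few molecules. After 180 min of KCl, Klf4 was at 12.3, 23.8 and 16.3 CPM, a log2 fold change of 4.12 (SE 0.54). After 180 min of 4APBic it was at 25.6 and 16.5 CPM, a log2 fold change of 4.40 (SE 0.56). Both groups stood clear of the basal samples. The 15 min samples did not, at 1.25 to 1.45 CPM with KCl and at 2.86 and 1.03 CPM with 4APBic. The response to 180 min of KCl differed between stages (23DIV minus 7DIV) by 0.12 on the log2 scale (SE 0.66), with a wide 95% interval of −1.18 to 1.41. The response to 180 min of 4APBic was larger at 23DIV by 3.55 (SE 0.87), a difference built on a rise known beforehand.

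**Figure D2:**
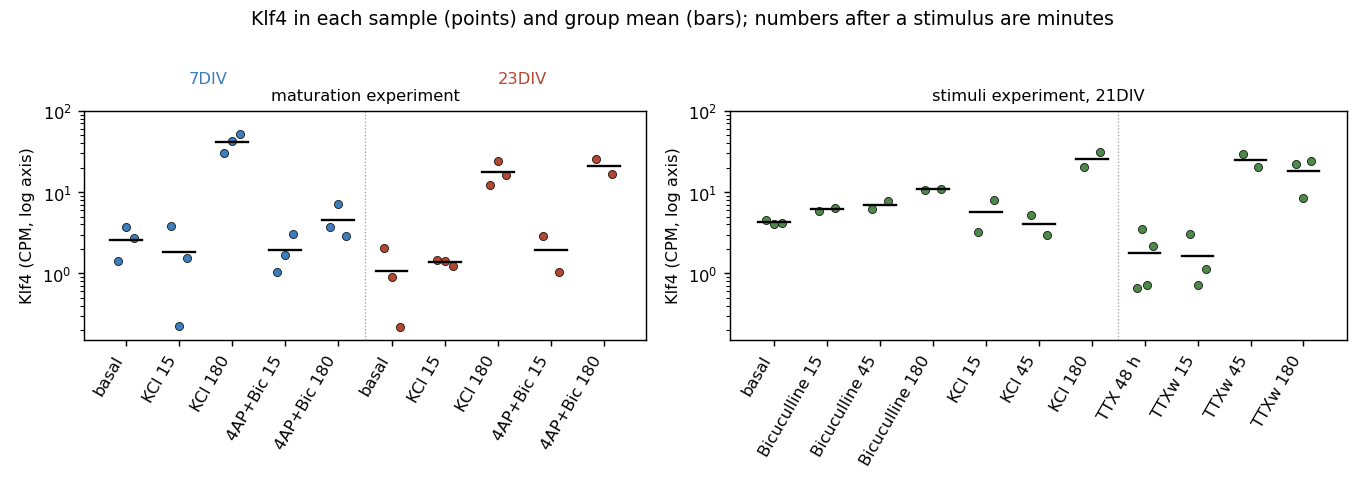
Klf4 level in CPM on a log axis for each sample (points) and the mean of each group (bars), in the maturation experiment at 7DIV and 23DIV (left) and the stimuli experiment at 21DIV (right, basal controls before the dotted line and basal TTX controls after it). The 180 min groups of KCl lie between 12.3 and 51.2 CPM, the 180 min group of 4APBic at 7DIV between 2.86 and 7.06 CPM, and the 45 min group of TTX withdrawal at 20.2 and 29.5 CPM.

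In the stimuli experiment, Klf4 was at 4.58, 4.09 and 4.17 CPM in basal samples. These and all basal TTX samples were under the 5 CPM of the filter. Klf4 thus entered the fit only through stimulated samples, so its adjusted p-values are not independent of its rises. KCl left it at 3.25 and 8.10 CPM at 15 min and at 5.19 and 2.96 CPM at 45 min, and brought it to 20.2 and 31.6 CPM at 180 min (log2 fold change 2.60, SE 0.39, adjusted p = 4.47e-05). Only the 180 min samples were clear of the basal samples. The step from 45 to 180 min, which also went from wells B to A, was itself called (2.65, SE 0.45, adjusted p = 0.00136). Without replicate 2 of the 180 min KCl group both calls were lost (2.22, adjusted p = 0.0515, against basal and 2.26, adjusted p = 0.19, against 45 min), and the second also without replicate 2 of the 45 min group (2.31, adjusted p = 0.086). With bicuculline alone, Klf4 was at 5.93 and 6.30 CPM at 15 min, 6.11 and 7.68 CPM at 45 min and 10.7 and 10.9 CPM at 180 min. All 6 samples were above the 3 basal samples, but no time passed the test (at 180 min, log2 fold change 1.32, SE 0.40, adjusted p = 0.152).

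TTX withdrawal gave the earliest call of Klf4, which entered the fit only through stimulated samples. Its adjusted p-values here are therefore not independent of its rises and serve as description. In basal TTX it was at 0.665, 3.48, 0.715 and 2.17 CPM (1, 6, 1 and 6 counts), and at 15 min of withdrawal at 3.02, 0.719 and 1.13 CPM. At 45 min it was at 29.5 and 20.2 CPM (log2 fold change 3.67, SE 0.44, adjusted p = 1.77e-07), and at 180 min at 22.2, 8.52 and 24.3 CPM (3.19, SE 0.44, adjusted p = 3.53e-07). Both later groups lay above all TTX and 15 min samples. The step from 15 to 45 min was called (3.69, SE 0.48, adjusted p = 1.42e-06), whereas 180 min did not differ from 45 min past the threshold (−0.48, 95% interval −1.17 to 0.21). At 45 min the response to TTX withdrawal exceeded that to KCl by 3.73 on the log2 scale (SE 0.68, adjusted p = 0.0025), a call held in 6 of 7 other settings. It exceeded that to bicuculline by 2.98 (SE 0.65, adjusted p = 0.00813). This call was lost without replicate 1 of the 45 min withdrawal group (2.67) and held in 3 of 6 other settings. Summed transcripts, thinned counts and a replicate block each lost it. At 180 min the withdrawal response exceeded the response to bicuculline by 1.87 (SE 0.63, adjusted p = 0.0478). That call was lost in 22 of 27 fits with 1 sample left out (1.59 to 2.00) and held in 1 of 7 other settings. At that time it did not pass the test against KCl (0.60, SE 0.62, adjusted p = 0.642). These differences compare folds against different controls, and Klf4 was lower in basal TTX than in basal samples, without overlap, by 1.17 on the log2 scale (adjusted p = 0.0789).

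Klf2, the closest relative of Klf4 in this list and a factor known for quiescence of endothelium, was too low to be described by folds. Its counts ran from 0 to 18 per sample at 7DIV and 23DIV, where it did not pass the filter of over 5 CPM in at least 2 samples, and from 0 to 9 at 21DIV, where it passed through 2 samples of TTX withdrawal, at 5.30 and 5.03 CPM. In basal TTX samples it had 4, 3, 0 and 9 counts, at 45 min of withdrawal 9 and 8, and at 180 min 4, 8 and 5. Relative to depth, both 45 min samples were above the basal TTX samples. No fold change or interval is given, since the gene passed only through groups where it was high, with 9 and 7 counts in those 2 samples.

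Klf5, an activator known in epithelia and smooth muscle, rose with bicuculline at every time and with KCl at the first. It was at 72.5, 75.2 and 76.6 CPM in 21DIV basal samples. With bicuculline it was at 157 and 135 CPM at 15 min, 125 and 179 CPM at 45 min and 181 and 179 CPM at 180 min, all above all basal samples. The log2 fold changes were 0.98 (SE 0.23, adjusted p = 0.0127), 1.03 (SE 0.22, adjusted p = 0.0033) and 1.27 (SE 0.22, adjusted p = 0.00116). The call at 15 min was lost without basal replicate 1 (0.95, adjusted p = 0.0586) or replicate 2 of that group (0.88, adjusted p = 0.217), and that at 45 min without replicate 2 of that group (0.77, adjusted p = 0.126). KCl brought it to 159 and 173 CPM at 15 min (1.16, SE 0.22, adjusted p = 0.00104). At 45 min of KCl the samples were at 119.7 and 95.7 CPM and at 180 min at 111 and 87.8 CPM, still above basal but not called (0.53 and 0.40, adjusted p = 0.39 and 0.54). The step down from 15 to 45 min of KCl was −0.62 (95% interval −1.11 to −0.14, adjusted p = 0.407). The astrocyte marker sum was 2423 to 2964 CPM in basal samples, 4267 to 4597, 4929 to 5544 and 2902 to 3217 CPM at 15, 45 and 180 min of bicuculline and 4484 to 4560 CPM at 15 min of KCl, and its part in the rises of Klf5 was not tested.

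TTX silencing and its withdrawal gave another picture for Klf5. In basal TTX it was at 27.9, 27.9, 55.1 and 32.5 CPM, below all basal samples (−1.08, SE 0.22, adjusted p = 0.000373). At 15 min of withdrawal it was at 27.9, 34.5 and 26.5 CPM, at 45 min at 40.1 and 38.5 CPM and at 180 min at 47.8, 29.8 and 79.7 CPM. These samples overlapped basal TTX and no time was called. At 15 min the response to withdrawal was smaller than that to KCl by 1.42 on the log2 scale (a difference of −1.42, SE 0.34, adjusted p = 0.0163), a call lost without replicate 1 of the 15 min withdrawal group (−1.38, adjusted p = 0.054) or replicate 2 of the 15 min KCl group (−1.39, adjusted p = 0.0723).

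In the maturation experiment Klf5 was at 29.05, 30.6 and 40.9 CPM in 23DIV basal samples and rose with 4APBic for 180 min to 110.3 and 95.5 CPM (1.61, SE 0.28, adjusted p = 0.000189). These samples were clear of basal and of the 15 min samples at 31.4 and 32.6 CPM. With KCl it was at 43.1, 73.4 and 39.7 CPM at 15 min and at 33.9, 58.3 and 86.1 CPM at 180 min, which overlapped basal (0.61 and 0.81, adjusted p = 0.146 and 0.0561, the latter called by DESeq2). At 7DIV it ran from 34.1 to 87.2 CPM over all groups and was called in 0 of 4 comparisons by edgeR's quasi-likelihood test (0 at an unadjusted p under 0.05 and 0 by DESeq2). With 4APBic for 180 min it was at 68.0, 65.7 and 53.5 CPM there against 50.7, 46.6 and 58.2 CPM in basal. The difference between stages in that response was 1.35 (SE 0.39, adjusted p = 0.0397), a call that was lost without 10 of the 11 samples compared, left out in turn (1.24 to 1.44, adjusted p = 0.0513 to 0.165).

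Klf6, known for promoting axon growth and for induction after nerve injury, was called higher with stimulation at 23DIV and in 0 of 4 comparisons at 7DIV (edgeR's quasi-likelihood test, with 1 at an unadjusted p under 0.05, lower, and 0 by DESeq2). At 23DIV it went from 67.3, 83.2 and 91.3 CPM in basal samples to 129, 176 and 148 CPM after 180 min of KCl, with no overlap (0.90, SE 0.15, adjusted p = 0.000456). After 180 min of 4APBic it was at 140.4 and 108 CPM (0.62, SE 0.17, adjusted p = 0.0117), also above all basal samples, a call lost without basal replicate 1 (0.50, adjusted p = 0.0501) or replicate 2 of the 4APBic group (0.41, adjusted p = 0.272). At 7DIV it was at 224, 272 and 284 CPM in basal samples and at 162, 209 and 210.0 CPM after 180 min of KCl, all below basal, without passing the test (−0.43, SE 0.16, adjusted p = 0.186). The response to 180 min of KCl thus differed between stages by 1.33 (SE 0.22, adjusted p = 0.00296), where 0.809% of all genes were called. This call held in each of 28 fits with 1 sample left out and in each of the 7 other settings tried. For 4APBic at 180 min the difference was 0.43 (SE 0.23, adjusted p = 0.309).

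At 21DIV, Klf6 was called higher at 45 min of bicuculline and at no time of KCl. Basal samples were at 111, 103 and 103 CPM. Bicuculline brought it to 162 and 173 CPM at 45 min (0.66, SE 0.16, adjusted p = 0.00577, and 0.64, adjusted p = 0.0875 without replicate 2 of that group), and at 180 min it was at 105 and 103 CPM, within the basal range. The fall from 45 to 180 min, which also went from wells B to A, was called (−0.68, SE 0.18, adjusted p = 0.0226). The call was lost without any 1 of these 4 samples (−0.75 to −0.63). With KCl it was at 96.7 and 102 CPM at 45 min and at 151 and 125 CPM at 180 min, the latter clear of basal but not called (0.38, SE 0.17, adjusted p = 0.363). At 45 min bicuculline exceeded KCl by 0.75 (SE 0.18, adjusted p = 0.0331), the only member called of 8 between bicuculline and KCl at that time (0.682% of all genes), and this call too was lost without any 1 of the 4 samples (0.70 to 0.82, adjusted p = 0.0727 to 0.497). At 15 and 180 min 0 of 8 were called between bicuculline and KCl by edgeR's quasi-likelihood test (0% and 0.665% of all genes), with 0 and 3 members at an unadjusted p under 0.05 and 0 by DESeq2.

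**Figure D3:**
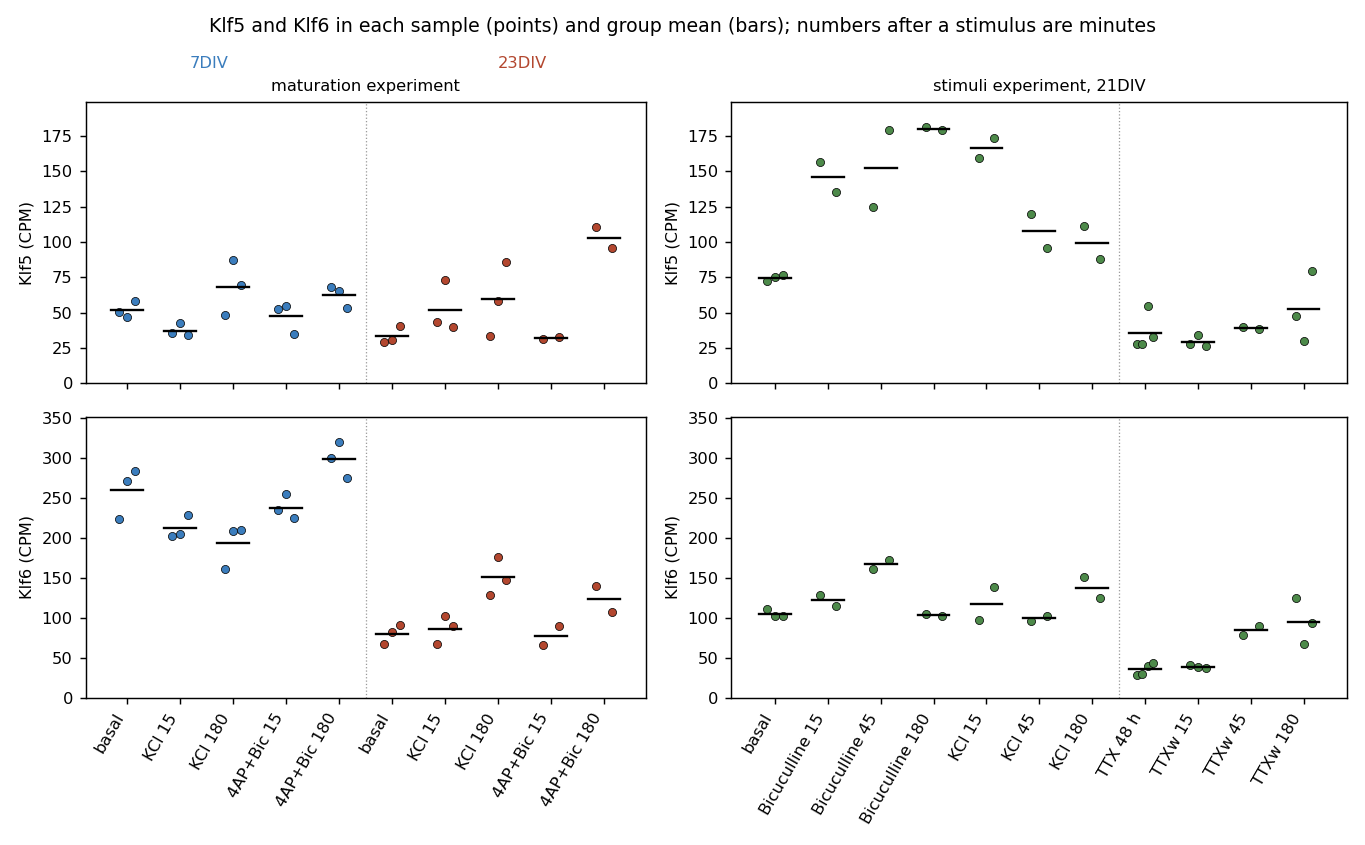
Klf5 (top) and Klf6 (bottom) in CPM for each sample (points) and group means (bars) in the maturation (left) and stimuli (right) experiments, with control groups placed before the stimuli compared with them. Klf5 is highest with bicuculline or KCl at 21DIV, reaching 181 CPM, and Klf6 falls from 224 to 284 CPM in 7DIV basal samples to 67.3 to 91.3 CPM in 23DIV basal samples.

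Klf6 was lower under TTX and rose on withdrawal. It was at 28.6, 30.8, 40.8 and 43.8 CPM in basal TTX, all below basal (−1.53, SE 0.16, adjusted p = 1.71e-10). At 15 min of withdrawal it was at 41.9, 38.8 and 37.7 CPM, at 45 min at 79.5 and 90.4 CPM (1.22, SE 0.19, adjusted p = 4.04e-05) and at 180 min at 126, 67.7 and 94.2 CPM (1.38, SE 0.17, adjusted p = 2.78e-08). The 15 min samples lay within the basal TTX range, and the later ones above all TTX samples. The step from 15 to 45 min was called (1.10, SE 0.20, adjusted p = 0.001). Against the other stimuli, the response to withdrawal was larger than that to bicuculline at 180 min (1.40, SE 0.24, adjusted p = 7.08e-05). It was larger than that to KCl at 45 min (1.31, SE 0.25, adjusted p = 0.00586), a call lost without replicate 3 of the withdrawal group (1.17, adjusted p = 0.118) or replicate 1 of the KCl group (1.24, adjusted p = 0.127). At 180 min it was larger than that to KCl by 1.00 (SE 0.24, adjusted p = 0.00544), lost without replicate 2 of the KCl group (0.85, adjusted p = 0.0758). In levels, the 180 min samples of withdrawal ran from 67.7 to 126 CPM beside 103 to 111 CPM in basal samples. Over the same 180 min, 5 of 7 astrocyte markers were called higher and 3 of 6 neuronal markers lower than in basal TTX, and their part in the result was not tested.

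Klf7, which promotes axon growth during development, was called in 0 of the 17 stimulated comparisons by edgeR's quasi-likelihood test (1 at an unadjusted p under 0.05 and 0 by DESeq2). Its range over samples was 27.4 to 313 CPM at 7DIV and 23DIV and 111.7 to 235 CPM at 21DIV. At 23DIV its lowest sample was at 27.4 CPM after 15 min of KCl, beside 70.5 and 68.0 CPM in the other samples of the group (−0.57, SE 0.25, adjusted p = 0.166). After 180 min of TTX withdrawal it was at 215, 111.7 and 203 CPM beside 145 to 188 CPM in basal TTX (0.06, 95% interval −0.25 to 0.37). The intervals of its other responses reached at most 0.68 on either side of 0 except for that of 15 min of KCl at 23DIV, so a 2-fold change was outside them.

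Klf9, a repressor induced by glucocorticoid and thyroid hormone and known to limit axon regrowth, had moderate rises. At 23DIV it was at 176, 181 and 181 CPM in basal samples and at 435 and 332 CPM after 180 min of 4APBic (1.10, SE 0.29, adjusted p = 0.013), with no overlap, a call lost without replicate 2 of that group (0.88, adjusted p = 0.17). After 180 min of KCl it was at 372, 273 and 349.5 CPM, clear of basal but not called by edgeR's quasi-likelihood test (0.89, SE 0.27, adjusted p = 0.0525). DESeq2, RLE factors and a replicate block each gave a call there. At 21DIV it was at 359, 366 and 302 CPM in basal samples and at 497 and 609 CPM after 45 min of bicuculline (0.69, SE 0.20, adjusted p = 0.0347), a call lost without basal replicate 1 or 5 or replicate 2 of that group (0.56 to 0.73, adjusted p = 0.0696 to 0.295). All 12 samples with bicuculline or KCl were above all 3 basal samples, with log2 fold changes of 0.35 to 0.73, of which that 1 was called by edgeR's quasi-likelihood test. The 0.73, with KCl for 180 min, was called by DESeq2, with no filter and with the compared groups only. TTX withdrawal left it at 362, 185 and 259 CPM at 180 min against 267 to 379.8 CPM in basal TTX (−0.28, SE 0.18, adjusted p = 0.323). At 180 min the response to withdrawal was below that to KCl by 1.01 (a difference of −1.01, SE 0.28, adjusted p = 0.0238), lost without basal replicate 5, either KCl sample or replicate 3 of the withdrawal group (−1.05 to −0.93, adjusted p = 0.055 to 0.0945). It was below that to bicuculline by 0.90 (−0.90, SE 0.27, adjusted p = 0.0391), lost in 9 of 27 fits with 1 sample left out (adjusted p = 0.0524 to 0.13). Klf9 was not called between basal TTX and basal (−0.08, 95% interval −0.43 to 0.26).

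Klf10, also called TIEG1 and known as an early target of TGF-beta, was low and moved in both directions. At 21DIV it was at 11.5, 17.1 and 8.34 CPM in basal samples. Bicuculline brought it to 25.6 and 25.2 CPM at 15 min (1.05, SE 0.28, adjusted p = 0.0187) and to 29.2 and 33.9 CPM at 45 min (1.37, SE 0.25, adjusted p = 0.000194), and KCl to 25.2 and 21.5 CPM at 15 min (0.92, SE 0.26, adjusted p = 0.0182). These samples were above all basal samples, but the calls at 15 min were lost without basal replicate 1 or 5 or either sample of the group (0.85 to 1.08 for bicuculline, adjusted p = 0.0594 to 0.218, and 0.72 to 1.06 for KCl, adjusted p = 0.0656 to 0.128). As for Klf5, the astrocyte marker sum was above basal in these groups, and its part was not tested. By 180 min it was at 18.01 and 18.7 CPM with bicuculline and at 13.7 and 10.9 CPM with KCl, and neither was called. At 23DIV it was at 33.02, 30.0 and 28.7 CPM in basal samples and at 11.97 and 14.6 CPM after 180 min of 4APBic, a fall with no overlap (−1.20, SE 0.39, adjusted p = 0.0333), whose call was lost on leaving out any 1 of these 5 samples (−1.36 to −1.06, adjusted p = 0.0577 to 0.257). In these 4APBic samples 3 of 7 astrocyte markers were called lower and 2 of 3 microglial markers higher, and their part was not tested for Klf10 or any other member. In basal TTX it was higher than in basal samples, at 31.3, 21.5, 20.03 and 22.1 CPM (0.94, SE 0.23, adjusted p = 0.00164). At 45 min of withdrawal it was at 14.7 and 21.6 CPM (−0.36, SE 0.27, adjusted p = 0.701), and the difference from the bicuculline response at that time was −1.72 (SE 0.37, adjusted p = 0.00657), lost without replicate 1 of the withdrawal group (−1.51, adjusted p = 0.0583).

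Klf13, a repressor close to Klf9, fell in stimulated 23DIV cultures. Basal samples were at 118, 222 and 225 CPM, a wide range. After 15 min of KCl it was at 53.3, 91.7 and 92.9 CPM, below all basal samples (−1.26, SE 0.23, adjusted p = 0.000905), and after 180 min at 126, 100.2 and 100.1 CPM, which overlapped the lowest basal sample (−0.80, SE 0.22, adjusted p = 0.033). The call at 180 min was lost without basal replicate 2 or 3 or KCl replicate 2 or 3 (−0.74 to −0.65, adjusted p = 0.155 to 0.178). After 15 min of 4APBic it was at 238 and 177 CPM, within the basal range, and after 180 min at 91.9 and 85.7 CPM (−1.09, SE 0.26, adjusted p = 0.00495), below all basal samples and just short of the threshold without either 1 of them (−1.14 and −1.05, adjusted p = 0.0517 and 0.0512). The fall between 15 and 180 min of 4APBic was called (−1.22, SE 0.28, adjusted p = 0.00509) and was lost without replicate 1 of the 15 min group (−0.97, adjusted p = 0.0815). At 7DIV it ran from 62.9 to 127 CPM over all groups with no call, and no difference between stages passed edgeR's quasi-likelihood test (for 15 min of KCl −1.20, SE 0.33, adjusted p = 0.052, and for 180 min of 4APBic −1.05, SE 0.35, adjusted p = 0.0805). Both were called with no filter. The first was also called by DESeq2 and in 5 fits with 1 sample left out, and the second in 3 such fits. In the stimuli experiment the same 55 mM KCl for 15 min left Klf13 at 145 and 177 CPM beside 120.3, 130.2 and 105 CPM in basal samples, a log2 fold change of 0.45 (SE 0.14, adjusted p = 0.0428) that stayed under 1.5-fold. The experiments were counted in separate tables, at 23DIV and 21DIV, so these values stand side by side and the difference was not tested.

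**Figure D4:**
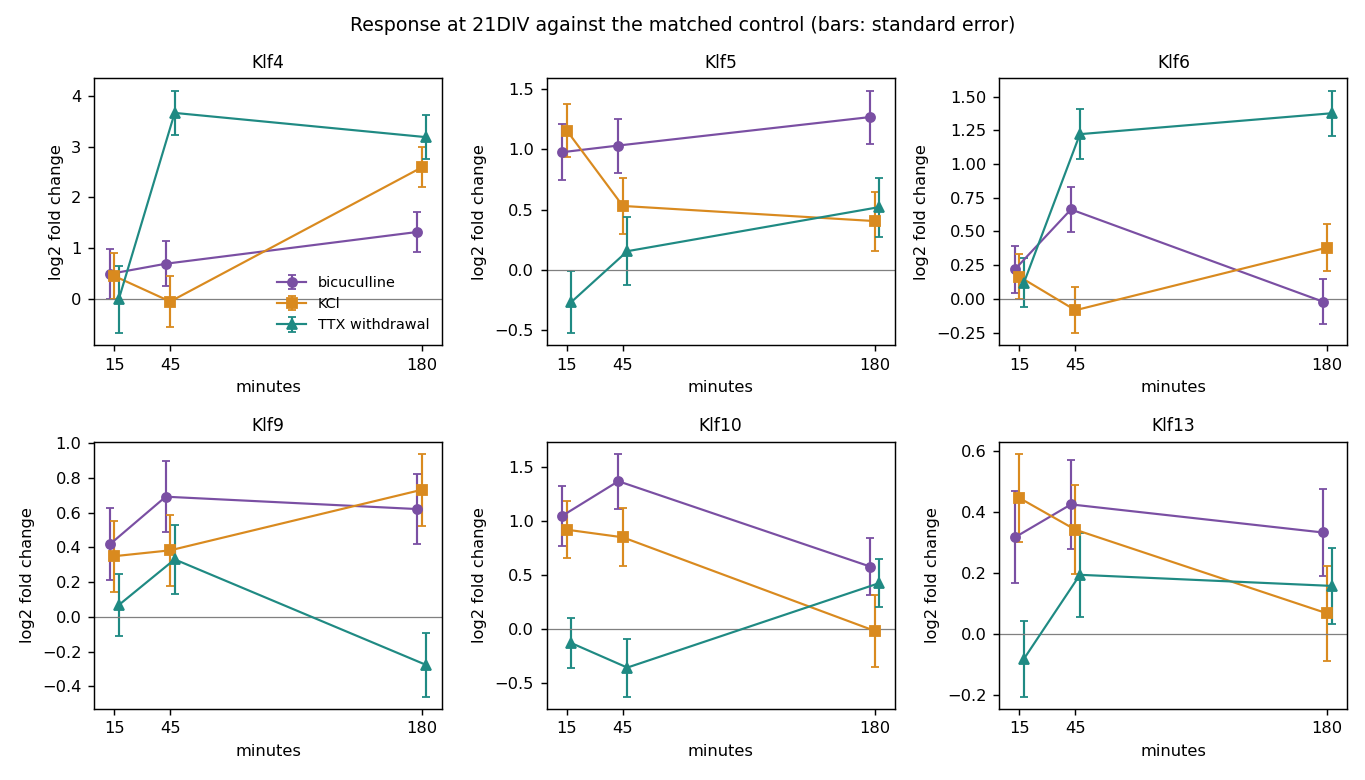
Log2 fold change (points, with SE bars) of 6 KLF genes at 15, 45 and 180 min of bicuculline and KCl, against basal, and of TTX withdrawal, against basal TTX, at 21DIV. For Klf4 and Klf6 withdrawal stands above the other stimuli at 45 min, at 3.67 and 1.22, whereas for Klf5 and Klf10 bicuculline and KCl stand above withdrawal at 15 min.

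Maturation without stimulation changed most of the members tested. Between 23DIV and 7DIV basal samples, 4 of 6 members were called where 33.1% of 10510 genes were, 3 lower (14.9% of all genes) and 1 higher (18.1%). Klf6 fell from 224, 272 and 284 CPM to 67.3, 83.2 and 91.3 CPM (−1.66, SE 0.15, adjusted p = 1.72e-06), and Klf7 from 293, 185 and 202 CPM to 66.7, 93.4 and 81.7 CPM (−1.46, SE 0.19, adjusted p = 3.08e-05). Both axon growth promoters were thus lower in every older sample than in every younger one. Klf5 was lower by 0.60 (SE 0.19, adjusted p = 0.0242), a call lost in 4 of the 7 other settings tried and without 7DIV replicate 4 or 23DIV replicate 1 or 2 (−0.56 to −0.51, adjusted p = 0.0628 to 0.0933). Klf13 was higher by 1.05 (SE 0.27, adjusted p = 0.00941), with 1 of 3 older samples (118 CPM) inside the younger range of 68.1 to 127 CPM. Klf9 and Klf10 were not called (0.40 and 0.19, adjusted p = 0.13 and 0.673), and Klf2 and Klf4 did not pass the filter in these 6 samples. In the same comparison 6 of 7 astrocyte and 6 of 6 oligodendrocyte markers were called higher, and their part in the result was not tested. From a list of 10 axon growth genes, of which 9 were tested, 7 were lower (14.9% of all genes) and 0 higher (18.1%), among them Tubb3, a neuronal tubulin (−1.65, SE 0.13), and Stmn2, a growth cone protein (−1.30, SE 0.10). Both are also among the neuronal markers, whose sum was 9339 to 9514 CPM in 7DIV and 6043 to 7092 CPM in 23DIV basal samples. The part of neuron content in this count was not tested.

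Silencing for 48 h changed 4 of 8 members where 21.5% of 12027 genes were called. Klf6 and Klf5 were lower in basal TTX (10.8% of all genes) and Klf10 and Klf13 higher (10.7%). The astrocyte marker sum was 2423 to 2964 CPM in basal samples and 6881 to 8021 CPM in basal TTX, with 7 of 7 markers called higher. The neuronal sum was 7853 to 8464 CPM and 5819 to 6990 CPM, with 1 of 6 markers called lower. Their part in the result was not tested. Klf13 went from 120.3, 130.2 and 105 CPM to 189.6, 159, 212 and 211 CPM with no overlap (0.70, SE 0.13, adjusted p = 1.64e-05). It stayed at that level through withdrawal, from 166 to 261 CPM, and was called in 0 of 3 withdrawal times by edgeR's quasi-likelihood test (0 at an unadjusted p under 0.05 and 0 by DESeq2). Klf7 was at 145 to 188 CPM against 126 to 144 CPM, not called (0.31, SE 0.16, adjusted p = 0.134).

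Other family members and partner proteins were counted in the same 17 comparisons. Of 18 other KLF and SP genes, 14 passed the filter at 7DIV and 23DIV and 13 at 21DIV, and at least 1 was called in 6 comparisons. With 4APBic for 180 min at 23DIV 1 of 14 was called where 14.1% of all genes were, Klf3, a CtBP-binding repressor (0.97, SE 0.33, adjusted p = 0.0431). With KCl for 180 min there 1 of 14 was called (4.71% of all genes), Sp4, named after its value was seen. At 21DIV, Sp7, known from bone, was the 1 of 13 called with bicuculline for 15 min (2.60, SE 0.65, 3.33% of all genes) and 45 min (2.00, SE 0.65, 7.3%). With KCl for 15 min 2 of 13 were called (7.11%), Sp7 (3.07, SE 0.60) and Klf14, named after its value was seen. Sp7 and Klf14 were low at 21DIV, at an average log2 CPM of 2.07 and 1.75, so their folds rest on few counts. With TTX withdrawal for 180 min 1 of 13 was higher (7.25% of all genes), Klf3 (0.63, SE 0.19), and 2 were lower (6.61%), Klf8 (−1.27, SE 0.42) and Sp9 (−1.25, SE 0.36). Of the cofactors of KLF proteins, 11 were tested at 7DIV and 23DIV and 12 at 21DIV. With 4APBic for 180 min at 23DIV 2 of 11 were called higher (7.27% of all genes), Sin3b, a Sin3 corepressor, and Wwp1, a ubiquitin ligase of KLFs, and 1 lower (6.81%), the corepressor Ctbp1 (−0.65, SE 0.12). With 15 min of KCl there Sin3b was the 1 of 11 higher (0.61, SE 0.14, 3.1% of all genes) and 1 was lower (2.94%), Crebbp, an acetyltransferase named after its value was seen. With KCl for 15 min at 21DIV 1 of 12 was higher (4.45%), Ctbp2 (0.66, SE 0.17).

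Lists of genes upstream of KLFs were counted in the same way. In the ERK5, MEF2 and SRF list, which drives Klf2 and Klf4 in other cells, Srf rose with 180 min of KCl at 7DIV (1.66, SE 0.29, adjusted p = 0.00163) and fell with 4APBic for 180 min at 23DIV (−1.11, SE 0.32, adjusted p = 0.0194), when 1 of 12 list genes was higher (7.27% of all genes) and 4 lower (6.81%). At 21DIV, Srf and Elk3, a ternary complex factor, were the 2 of 11 called with bicuculline at 15 and 45 min and with KCl at 15 min, all higher (2.3%, 4.39% and 4.45% of all genes). In the glucocorticoid and thyroid hormone list, 2 of 8 were called higher (7.27%) and 1 lower (6.81%) with 4APBic for 180 min at 23DIV, with Sgk1, a hormone-induced kinase, at 2.55 (SE 0.31) and Per1, a clock gene, at 1.79 (SE 0.30). In basal TTX 4 of 8 were lower (10.8% of all genes) and 1 higher (10.7%). In the TGF-beta list 2 of 11 were higher (7.27%) with 4APBic for 180 min at 23DIV, the inhibitor Smad7 (1.77, SE 0.44) and the corepressor Tgif1 (3.31, SE 0.61), while Klf10 fell. Smad7 was higher with bicuculline for 45 min (2.21, SE 0.36), when Klf10 was also called higher.

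The genes whose log2 fold changes ran most like those of a member over the stimulated conditions were found by Pearson correlation, over 8 conditions among 1896 candidate genes for 7DIV and 23DIV and over 9 among 2399 for 21DIV. Conditions of a stage shared their control samples, so r is a description. For Klf4 they were the nuclear receptors Nr4a1 (r = 0.995) and Nr4a2 (0.967) and Spty2d1 (0.979) at 7DIV and 23DIV, and Eprs (0.918), Kcnq1ot1 (0.896) and Nfkbiz (0.874) at 21DIV. At 7DIV and 23DIV the r of Klf4 rests on its rises known beforehand. For Klf5 at 21DIV they were Nfil3 (0.946), Sgk1 (0.936) and Inhba (0.930), and for Klf6 Dbt (0.970), Zbtb21 (0.955) and Magt1 (0.945). Klf9 is shown besides these although it had fewer calls than members not shown. Its nearest were Fos (0.983), Tceal9 (0.972) and Sstr1 (0.967) at 7DIV and 23DIV. At 21DIV they were other genes, Plcb4 (0.972), Dpp10 (0.965) and Chrnb2 (0.962).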

How the data were processed

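RNA was measured by CEL-Seq2 in 28 samples of the maturation experiment and 27 of the stimuli experiment. The authors aligned reads to mm10 with STAR and counted 3′ ends per transcript with ESAT, and the deposited values are raw counts per RefSeq transcript and sample; other settings and the use of strand are not given in the sources used here. Transcripts were matched to gene symbols by accession without version (80.8% of 97700 and 80.9% of 96722 transcripts). Those without a match, which held 18.5% and 19.2% of counts, were left out. Each gene was its transcript with the most counts over an experiment. The test took genes with over 5 CPM in 2 or more samples and used edgeR 4.0.16 in R 4.3.3 (TMM, robust glmQLFit, glmQLFTest, Benjamini-Hochberg over all genes), in 1 fit per experiment except the basal stages, which were fitted on their 6 samples. The scripts were tested on simulated data. DESeq2 1.42.0, RLE factors, no filter, counts summed over transcripts, counts thinned to the smallest library, a replicate block, other sample sets and leaving out each sample were the alternatives. Intervals are 1.96 SE on either side.

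Named are the 8 members in every comparison, the 3 genes most like a member by Pearson correlation of log2 fold changes (shown for Klf4, Klf5, Klf6 and Klf9), and up to 4 genes of each list with the lowest adjusted p. The members and lists were chosen with earlier results of these data known.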

Additional observations from a re-analysis of the deposited data

Results flagged for a closer look

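Between 23DIV and 7DIV the same stimulus gave different log2 fold changes by the test of the difference (23DIV minus 7DIV) for Klf6 with KCl for 180 min (1.33) and for Klf5 with 4APBic for 180 min (1.35). For Klf4 with 4APBic for 180 min the difference was 3.55, a value built on a rise known when the genes were listed and given with no test.

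At 21DIV the response to TTX withdrawal, measured against basal TTX, differed by the test of the difference from the response to bicuculline or KCl, measured against basal, in 10 instances (withdrawal minus the other stimulus). Against bicuculline these were Klf4 at 45 min (2.98) and 180 min (1.87), Klf10 at 45 min (−1.72), Klf6 at 180 min (1.40) and Klf9 at 180 min (−0.90). Against KCl these were Klf5 at 15 min (−1.42), Klf4 at 45 min (3.73), Klf6 at 45 min (1.31) and 180 min (1.00) and Klf9 at 180 min (−1.01). Members that differed between basal TTX and basal enter these differences through their controls. The part of the controls and of the medium exchange at withdrawal was not tested. Klf4 passed the filter on low counts only through stimulated samples. By Dixon's test no sample stood apart from the other 3 of basal TTX, the only group of 4, with Klf5 as a borderline case. The highest basal TTX sample of Klf5 was well above the others, near the limit of that test on the CPM scale.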

How the results depend on the processing

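The counts here include 7 calls of Klf4 that were known beforehand or are built on those. Of 59 calls, 29 held in every fit with 1 sample left out, 33 in every other setting and 25 in both. No called value changed direction. RLE factors moved the median of all genes by −0.0339 to 0.0331. DESeq2 gave no adjusted p for 35 pairs of member and comparison, among them 6 calls, all of Klf4, which were left out of its counts. The 3 calls of a difference between stages became 5 with DESeq2, 6 with no filter and 1 with summed transcripts. The 1 call between bicuculline and KCl became 2 with no filter, 0 with summed transcripts, 0 with thinned counts and 3 with the compared groups only, and the 10 between the TTX withdrawal response and the others became 6 with summed transcripts. The cause of these shifts was not tested.

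The deviations of samples with the same replicate number had a median correlation of −0.00542 in the maturation and 0.00764 in the stimuli experiment. For samples with different numbers the medians were 0.000234 and −0.00301. Whether samples with the same number shared a dissection was not tested. With a replicate block, the stage differences came to 1, the bicuculline calls to 3 of 7, the basal TTX calls to 2 of 4 and the TTX withdrawal differences to 6 of 10, and no other count moved by over 1.5 times.

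Leaving out 1 sample gave 1 to 1 calls at 7DIV, 6 to 12 at 23DIV, 1 to 5 for stage differences, 10 to 14 between times, 3 to 6 between basal stages, 4 to 8 for bicuculline, 2 to 4 for KCl, 4 to 5 for TTX withdrawal, 4 to 5 for basal TTX, 0 to 2 between bicuculline and KCl and 7 to 12 between the TTX withdrawal response and the others. The 10 calls at 23DIV became 6 without replicate 2 of 4APBic at 180 min, which leaves 1 sample that is assumed to vary like the other groups. The stage differences came to 1 without 7DIV basal replicate 3 or 4 or 23DIV 4APBic 180 min replicate 2 and to 5 without 23DIV KCl 15 min replicate 1. The bicuculline calls came to 4 without basal replicate 1 or 45 min replicate 2. The call between bicuculline and KCl came to 0 without any 1 of the 4 samples at 45 min and to 2 without basal TTX replicate 3 or replicate 2 or 3 of TTX withdrawal at 180 min. Klf2, at 0 to 18 counts a sample, and Klf4 in control samples were limited by depth.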

Other observations

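Genes of the axon growth list were counted in the 6 comparisons where Klf4 was higher. These comparisons were picked by that rise and the remaining ones are not given here, so the counts show no link to Klf4. With KCl for 180 min, 1 of 10 was higher at 7DIV (0.996% of all genes), and at 23DIV 2 were higher (2.87%) and 1 lower (1.84%). At 21DIV 0 were called by edgeR's quasi-likelihood test (0.773% in either direction), with 3 at an unadjusted p under 0.05. With 4APBic for 180 min at 23DIV, 2 of 10 were higher (7.27%) and 2 lower (6.81%). The injury-induced factors Atf3 and Jun were higher by 5.00 and 3.11 on the log2 scale, and Tubb3 was lower by 1.05 (a change of −1.05). With TTX withdrawal 2 of 10 were higher at 45 min (0.299%), and at 180 min 2 were higher (7.25%), among them Atf3 (4.16), and 1 was lower (6.61%), Stmn2 (−0.60). Tubb3 and Stmn2 are also among the neuronal markers, and the part of neuron content in their falls was not tested.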
